A study of Mus musculus with 5 samples.

Results

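The 10 genes followed here, across the cells of the mouse heart, belong to the immediate early and heat shock responses: Fos, Fosb, Jun, Junb, Atf3, Egr1, Ier2, Nr4a1, Hspa1a and Hspa1b. They were taken by symbol, and all 10 were among the 31053 genes of the count matrices. The matrices held unique molecular identifier (UMI) counts, in which each UMI stands for 1 captured RNA molecule, from 5 single-cell libraries made with a 10x Genomics 5′ kit. Control hearts came from 4 Ctla4+/+Pdcd1-/- mice and gave 2 libraries, replicates 1 and 2. Disease hearts, a model of immune checkpoint inhibitor myocarditis, came from 10 Ctla4+/-Pdcd1-/- mice and gave 3 libraries, replicates 3, 4 and 5. Every group thus lacked Pdcd1, which encodes the checkpoint receptor PD-1, and the groups differed in carrying 1 or 2 intact copies of Ctla4. The mice's age and sex were not given in the sources used here. The genotype labels of single libraries ran from Pdcd1 to Pdcd2 and Pdcd3, and the dye from DRAQ5 to DRAQ9, whereas the design text names Pdcd1 and DRAQ5 throughout. The groups followed the Ctla4 part of the labels, which was the same in both.

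Hearts were pooled, minced and digested for 1 hour at 37 °C with collagenase I at 450 U/ml, DNase I at 60 U/ml and hyaluronidase at 60 U/ml. Nucleated cells with an intact membrane (DRAQ5+DAPI-) were then sorted. A library is therefore a pool of hearts, the labels do not say which mice it holds, and p-values measure the spread between these pools. No undigested heart was analysed here, so RNA made during the digestion and RNA present in the intact heart cannot be told apart.

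Immediate early genes are transcribed within minutes of a stimulus, with no need for new protein. Fos, Fosb, Jun and Junb encode subunits of the AP-1 transcription factor, which binds DNA as dimers of a Fos and a Jun protein, or of 2 Jun proteins, and Atf3 encodes a stress-induced partner of the same bZIP family. Egr1 and Nr4a1 encode a zinc finger factor and an orphan nuclear receptor, and Ier2 a nuclear protein of the early response. Hspa1a and Hspa1b encode the inducible chaperone HSP70 under the control of heat shock factors. Warm enzymatic digestion is known to induce genes of both kinds in many tissues, and for this reason they are often used as marks of dissociation.

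The promoters of 8 of the 10 genes were matched by symbol to RefSeq sequences (build GRCm38.p6), over the 250 bases before the start site. Egr1 and Ier2 had no promoter in the set used, which left out entries of the chromosome that carries Egr1. Their promoters were therefore not searched. TGACG, part of the cyclic AMP response element that bZIP factors bind, was found on either strand in 5 of the 8 (Fos, Fosb, Junb, Atf3 and Nr4a1), against 17.77% of 32851 promoters of the same length. GAANNTTC, a pair of heat shock element units, was found in 3 (Jun, Hspa1a and Hspa1b), against 6.694% of promoters. TATAAA was found in Fos, against 12.37%, and the CArG box, the core of the serum response element, in none of the 8 windows, against 1.467%. Sites further upstream than 250 bases and the promoter of Egr1 were not searched. The count therefore does not show that these genes lack the element. No searched motif overlapped another in these windows. The promoters of Fos and Atf3 are printed because Atf3 was called between the groups and Fos, an AP-1 gene with the same motif, was not. That of Fos lies at chr12:85473640-85473889, + strand, with TGACG from −129 and −66 and TATAAA from −33 in capitals. That of Atf3 lies at chr1:191183334-191183583, − strand, with capitals marking a TGACG that reads on the opposite strand, from −7 to −3.
Fos: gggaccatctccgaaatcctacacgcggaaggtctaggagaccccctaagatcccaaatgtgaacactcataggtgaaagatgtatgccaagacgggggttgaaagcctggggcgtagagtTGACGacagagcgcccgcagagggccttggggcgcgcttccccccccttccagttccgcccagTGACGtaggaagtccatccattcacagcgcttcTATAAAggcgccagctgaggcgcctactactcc
Atf3: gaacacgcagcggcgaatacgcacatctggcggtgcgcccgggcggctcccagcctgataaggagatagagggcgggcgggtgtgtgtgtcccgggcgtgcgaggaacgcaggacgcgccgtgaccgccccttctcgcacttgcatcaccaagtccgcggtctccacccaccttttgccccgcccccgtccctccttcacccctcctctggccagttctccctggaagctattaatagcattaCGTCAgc

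The heat shock pair is printed because reads from the 2 genes may be hard to assign. Hspa1a lies at chr17:34972157-34972406 and Hspa1b at chr17:34959239-34959488, both on the − strand. Their promoters were identical at 247 of 250 bases (98.8%). The differences, in capitals, were C44T, T47C and T249G, with the Hspa1a base before the position, counted from 1 at the 5′ end of the window, and the Hspa1b base after it. Each held GAANNTTC from −104 to −97, left in lower case.
Hspa1a: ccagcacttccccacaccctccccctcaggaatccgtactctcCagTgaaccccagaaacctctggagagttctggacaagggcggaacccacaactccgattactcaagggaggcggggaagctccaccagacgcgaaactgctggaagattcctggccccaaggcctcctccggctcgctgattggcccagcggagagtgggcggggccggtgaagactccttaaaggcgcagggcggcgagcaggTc
Hspa1b: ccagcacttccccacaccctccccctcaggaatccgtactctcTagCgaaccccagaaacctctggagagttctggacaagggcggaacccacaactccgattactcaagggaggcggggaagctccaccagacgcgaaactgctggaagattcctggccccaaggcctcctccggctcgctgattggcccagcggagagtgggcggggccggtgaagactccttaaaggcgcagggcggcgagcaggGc
In the GENCODE M21 transcripts, which may not be the annotation the authors counted on, 69.3% of the 50-base windows in the first 300 bases of Hspa1a occurred unchanged in Hspa1b, and 58.8% of those in its whole transcript. Reads from such stretches cannot be told apart, so counts of Hspa1a and Hspa1b are uncertain singly, and their sum was fitted as well. The sum does not bring back any reads that the counting left out of both genes.

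The libraries held 6465 to 11358 barcodes and 24991704 to 55053988 UMIs, and 5588 to 9950 cells remained after filtering, with medians of 3368 to 4668 UMIs. The smallest barcode held 500 UMIs, and empty droplets, from which free RNA is estimated, were thus missing from the matrices. Between 86 and 161 barcodes were shared by any 2 libraries, 1.33 to 1.90% of the smaller. Cells were assigned to 10 lineages from 65 marker genes, none of them among the 10 genes studied, and 87.4 to 92.3% of cells in each library were assigned. Of 270 values of markers held out of the assignment, 268 were higher in the lineage than in other assigned cells, and the 2 exceptions were in dendritic-like cells. Control replicates 1 and 2 held 566 and 103 T cell-like cells, against 138, 2312 and 582 in disease replicates 3 to 5, so disease replicate 3 lay between the controls. Ctla4 in T cell-like cells was 433 and 68.1 CPM (counts per 1e+06 UMIs of the lineage) in control and 141, 649 and 543 in disease. Pdcd1 RNA was found in every library, at 74.9 to 1056 CPM of T cell-like cells. The labels do not give the deleted part of either gene, so these levels check no genotype. Cardiomyocyte markers summed to 442 and 626 CPM in control and 549, 197 and 483 in disease, and median mitochondrial shares were 3.82 and 3.47% against 5.18, 3.06 and 4.56%.

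The 10 genes together made up 1.34 and 1.35% of all UMIs in control, against 1.04, 0.748 and 1.09% in disease. The groups did not overlap, and disease replicate 4, which held the most T cell-like cells, was lowest. These shares are over all cells and move with the make-up of a library, so the 10 genes were also summed within lineages. They made up 1.04 and 0.936% of endothelial-like UMIs in control against 0.681, 0.825 and 0.872% in disease. Fibroblast-like cells had 1.67 and 1.76% against 1.32, 1.34 and 1.52%, and monocyte/macrophage-like cells 1.26 and 1.73% against 1.16, 0.618 and 0.923%. The groups were apart in these lineages, with disease replicate 3 lowest in the first 2 and disease replicate 4 in the last. T cell-like cells had 0.478 and 0.546% against 0.397, 0.224 and 0.348%, and B cell-like cells 0.391 and 0.383% against 0.254, 0.202 and 0.321%. The groups were apart there too, and likewise in neutrophil-like, NK cell-like and dendritic-like cells. The groups overlapped in mural-like cells, at 2.31 and 2.44% against 1.89, 2.29 and 2.39%, and in Schwann-like cells, at 1.79 and 2.15% against 1.25, 2.13 and 2.51%. Levels by lineage are given next, as CPM averaged over the 5 libraries with their SD. Endothelial-like (13872 cells), fibroblast-like (10450), monocyte/macrophage-like (4615), T cell-like (3701) and B cell-like cells (1130) had at least 50 cells in every library and were tested. Mural-like (185 cells), neutrophil-like (197), NK cell-like (132), Schwann-like (119) and dendritic-like cells (118) were too few and are described.

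Fos was highest in Schwann-like, mural-like and fibroblast-like cells. It reached 8670 ± 3389 CPM in Schwann-like, 7723 ± 1415 in mural-like and 4797 ± 123 CPM in fibroblast-like cells. Monocyte/macrophage-like cells had 2783 ± 529 CPM and endothelial-like cells 2184 ± 329. Dendritic-like, neutrophil-like, NK cell-like, T cell-like and B cell-like cells followed at 869.8 ± 195, 773 ± 138, 433 ± 200.1, 328 ± 86.3 and 238 ± 42.4 CPM. In log2 terms, Fos in fibroblast-like cells exceeded that in T cell-like cells by 3.65 (SE 0.19) and that in B cell-like cells by 3.99 (SE 0.20). Over all genes, 61.2% of gene-by-pair tests between the 5 larger lineages were called in a fit with the library as a block (edgeR's quasi-likelihood test, adjusted p under 0.05). For the 10 genes, 87 of 100 such tests were called, and for Fos 9 of 10, all but T cell-like against B cell-like (adjusted p = 0.116).

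Jun and Fosb differed in all 10 pairs. Jun, the main partner of Fos in AP-1, averaged 2566 ± 247 CPM in fibroblast-like, 1698 ± 456 in monocyte/macrophage-like, 1535 ± 226 in endothelial-like, 191 ± 20.4 in B cell-like and 83.3 ± 16.6 CPM in T cell-like cells. Fosb, a close relative of Fos, averaged 1207 ± 81.2, 581 ± 109, 438 ± 53.8, 85.3 ± 20.9 and 137 ± 43.6 CPM in the same lineages. Jun was thus higher in B cell-like than in T cell-like cells, and Fosb the other way round. Egr1 averaged 2410 ± 584 CPM in fibroblast-like cells against 195 ± 52.9 in T cell-like and 98.0 ± 48.7 in B cell-like cells. Its level in endothelial-like cells (1238 ± 290.4) was not separated from that in monocyte/macrophage-like cells (1204 ± 614, adjusted p = 0.315).

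Junb and Ier2 were spread more evenly. Junb, an AP-1 subunit that T cells and macrophages also use, averaged 3026 ± 1360 CPM in mural-like, 2522 ± 1280 in NK cell-like, 2256 ± 1178 in monocyte/macrophage-like and 2184 ± 973 in T cell-like cells. Its lowest mean was 1218 ± 649 CPM, in dendritic-like cells. For Junb 2 pairs were not called: monocyte/macrophage-like against T cell-like cells, with a log2 difference of −0.02 (SE 0.12, adjusted p = 0.890), and fibroblast-like against B cell-like cells (0.13, SE 0.12, adjusted p = 0.349). Ier2 ranged from 236 ± 51.2 CPM in dendritic-like to 1471 ± 503 CPM in mural-like cells, and 6 of its 10 pairs were called. Ier2 lay at 534 ± 172 CPM in macrophage-like cells, 613 ± 85.5 in T cell-like and 607 ± 86.8 CPM in B cell-like cells, and no pair of these was called.

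Nr4a1, which antigen receptor signalling also induces, had another order. Mural-like cells were highest at 1265 ± 306 CPM, followed by Schwann-like (878 ± 169) and fibroblast-like cells (594 ± 127). NK cell-like, B cell-like, dendritic-like, neutrophil-like and T cell-like cells lay between 507 and 326 CPM. Monocyte/macrophage-like (162 ± 44.6) and endothelial-like cells (122 ± 18.5 CPM) were lowest, although their Fos levels were above those of lymphocytes. In the fit, Nr4a1 was lower in endothelial-like than in T cell-like cells by 1.67 log2 units (SE 0.15) and than in B cell-like cells by 2.01 (SE 0.16).

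Atf3 was highest in neutrophil-like cells at 1423 ± 1098 CPM, then in monocyte/macrophage-like (1046 ± 877), mural-like (941 ± 763) and fibroblast-like cells (418 ± 349). These SDs span both groups of libraries, and the order of the means did not hold in each library. Mural-like cells lay above monocyte/macrophage-like cells in every library but control replicate 1 (1260 against 1871 CPM). Neutrophil-like cells lay below both in disease replicate 3, at 320 CPM. By its mean, Hspa1a was highest in monocyte/macrophage-like cells at 926 ± 500.5 CPM, followed by mural-like (879.7 ± 386), Schwann-like (483 ± 246) and endothelial-like cells (456 ± 260). Mural-like cells were above monocyte/macrophage-like cells in control replicate 1 and disease replicates 4 and 5, and below them in the other libraries. Fibroblast-like cells, which held more Fos than endothelial-like cells, held less Hspa1a at 221 ± 104 CPM, a log2 difference of 0.92 (SE 0.18). T cell-like and B cell-like cells held 29.1 ± 12.1 and 28.7 ± 15.1 CPM of Hspa1a. Hspa1b lay at 183 ± 86.0 CPM in monocyte/macrophage-like, 133 ± 46.3 in mural-like, 69.1 ± 18.0 in endothelial-like and 66.6 ± 14.3 in fibroblast-like cells.

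**Figure D1:**
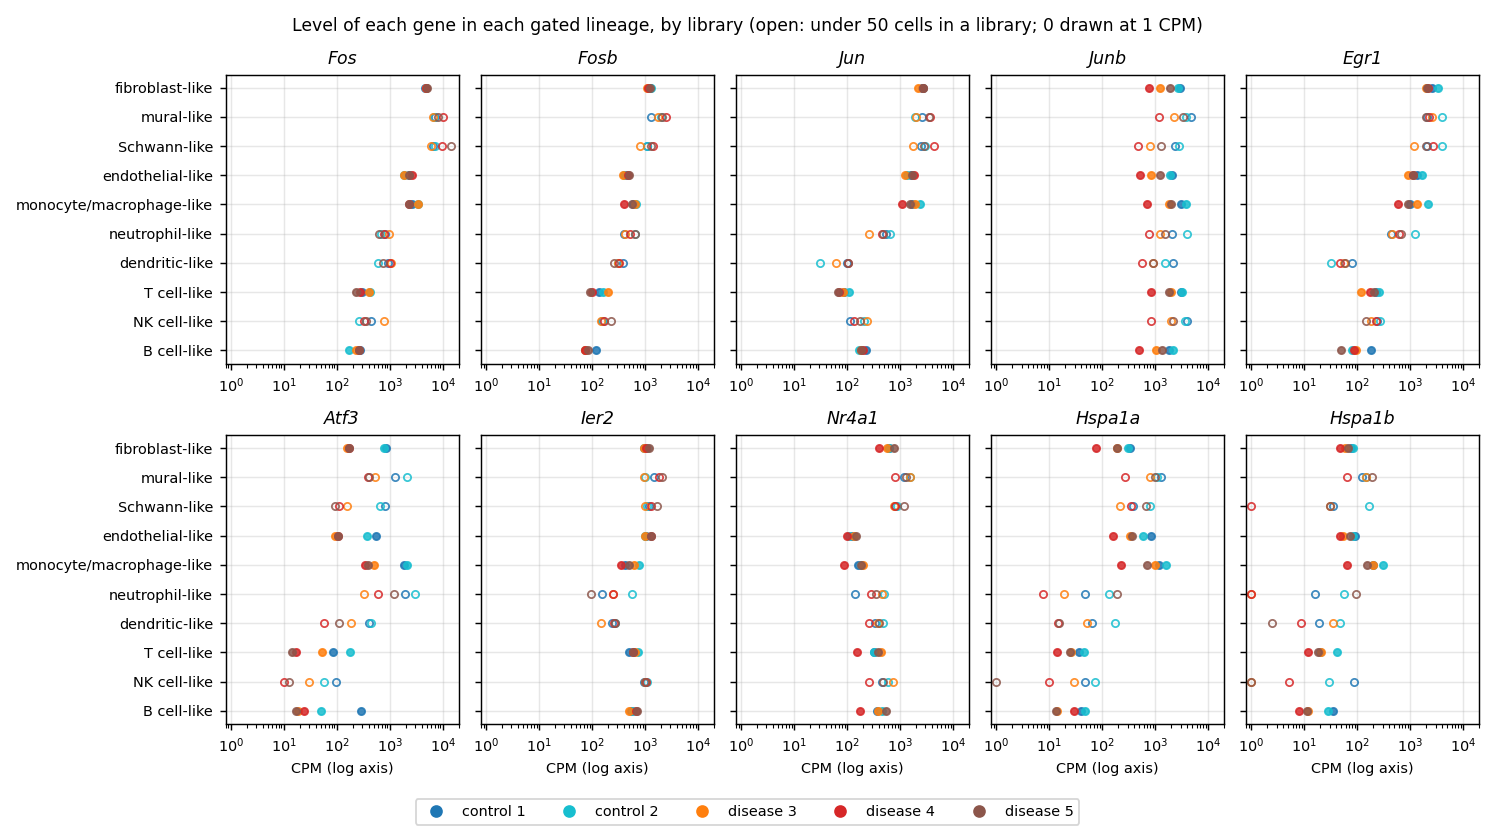
Level of each of the 10 genes (x axis, CPM on a log axis, 0 drawn at 1 CPM) in each lineage (y axis), with 1 point per library coloured by library and open points for lineages with under 50 cells in some library. Fos, Jun and Egr1 fall by more than a log10 step from fibroblast-like to lymphoid cells, Junb and Ier2 stay within a narrower band, and the control points of Atf3 stand to the right of the disease points.

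Between the groups, 1 of the 10 genes was called, Atf3. Its level was lower in disease in all 5 lineages, and the call was made in 4 of them. Of all genes tested, 12.0% were called in endothelial-like and 12.8% in fibroblast-like cells. The share was 6.79% in monocyte/macrophage-like, 4.88% for T cell-like and 8.80% for B cell-like cells. In the same order, most calls were lower in disease, at 11.7, 12.4, 6.71, 4.87 and 8.59% of genes, against 0.324, 0.343, 0.0812, 0.0102 and 0.202% called higher. So 1 of 10 genes called lower, in 4 lineages, and 0 of 10 in T cell-like cells were counts near these shares. In T cell-like cells 2 of the 10 genes had an unadjusted p under 0.05 by edgeR, and 1 was called by DESeq2. DESeq2 called 4, 3, 1, 1 and 1 of the 10 genes lower in the 5 lineages, against 13.2, 14.1, 7.81, 5.46 and 7.33% of all genes, and none higher.

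Atf3 in endothelial-like cells stood at 556 and 371 CPM in control, against 90.9, 104 and 106 CPM in disease. Its log2 fold change (disease over control) came to −2.28 (SE 0.19, adjusted p = 0.00127, edgeR's quasi-likelihood test with Benjamini-Hochberg adjustment). The disease libraries lay close together and all far below both controls. Fibroblast-like cells had 833 and 764 CPM in control and 157, 166 and 167 CPM in disease, a log2 fold change of −2.33 (SE 0.11, adjusted p = 0.00036). Monocyte/macrophage-like cells had 1871 and 2128 CPM in control and 506, 338 and 388 CPM in disease, a log2 fold change of −2.18 (SE 0.20, adjusted p = 0.00252). The mean of the disease libraries was 0.216, 0.205 and 0.205 of the control mean in the 3 lineages. These calls held in all 13 alternative settings, with log2 fold changes between −2.54 and −1.95, −2.42 and −2.24, and −2.33 and −2.13.

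In lymphocytes Atf3 was scarce. B cell-like cells had 282 and 51.1 CPM in control, from 107 and 38 UMIs, and 18.4, 23.9 and 17.0 CPM in disease, from 8, 24 and 9 UMIs. The groups did not overlap, with a log2 fold change of −2.90 (SE 0.68, adjusted p = 0.0427), but the control libraries lay far apart. Without control replicate 1 the log2 fold change was −1.19 (adjusted p = 0.172), and without disease replicate 3, 4 or 5 the adjusted p was 0.0820, 0.0846 and 0.157, so that the call was lost. T cell-like cells had 85.2 and 179 CPM in control and 52.5, 16.7 and 14.5 CPM in disease. Here the log2 fold change of −2.29 (SE 0.66) did not pass (adjusted p = 0.110), and disease replicate 3 lay nearest the controls; without it the value was −3.09 (adjusted p = 0.0301). Without any other single library it was not called, at −2.89 to −1.75 (adjusted p = 0.0829 to 0.392), whereas DESeq2 (adjusted p = 0.0259), the stricter gate (adjusted p = 0.0112) and the fit without the filter (adjusted p = 6.67e-06) called it. Neutrophil-like cells, with 17 to 273 Atf3 UMIs a library, had 1963 and 3027 CPM in control and 320, 586 and 1220 CPM in disease. Mural-like cells had 1260 and 2143 CPM in control and 517, 379 and 407 CPM in disease. In both the controls lay above all disease libraries, with no test.

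Atf3 was lower in relation to Fos as well. Per 100 UMIs of Fos, endothelial-like cells held 23.8 and 20.1 UMIs of Atf3 in control and 4.88, 3.96 and 4.71 in disease. Fibroblast-like cells held 17.9 and 16.2 against 3.24, 3.44 and 3.38, and monocyte/macrophage-like cells 73.2 and 63.5 against 15.1, 14.5 and 16.6. The ratio varied little within a group and did not overlap between groups. Cells with Fos and Jun differed in the same way. Among cells thinned to 1000 UMIs that had a UMI of both Fos and Jun, 45.6 and 38.7% of control endothelial-like cells also had Atf3, against 14.5, 13.9 and 14.1% in disease. In fibroblast-like cells these shares were 49.6 and 49.2% against 16.2, 15.6 and 14.3%, and in monocyte/macrophage-like cells 78.5 and 79.2% against 41.8, 32.2 and 35.9%. Monocyte/macrophage-like cells without a UMI of Fos or Jun also differed, at 52.0 and 48.6% with Atf3 in control and 17.4, 16.2 and 17.2% in disease.

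Fos itself hardly moved. In fibroblast-like cells it stood at 4639 and 4709 CPM in control and 4859, 4834 and 4947 CPM in disease, a log2 fold change of 0.02 (SE 0.10, adjusted p = 0.899). The disease libraries all lay above the controls, but the highest library was only 1.07 times the lowest. In endothelial-like cells Fos was 2334 and 1847 CPM in control and 1864, 2620 and 2257 CPM in disease (log2 fold change 0.04, SE 0.17, adjusted p = 0.913), and the groups overlapped. Monocyte/macrophage-like cells had 2557 and 3348 CPM in control and 3358, 2322 and 2328 CPM in disease (−0.04, SE 0.22, adjusted p = 0.943). Fosb, Jun, Ier2 and Nr4a1 did not pass in any of the 5 lineages either. Over these 5 genes and 5 lineages, log2 fold changes ran from −0.34 for Jun in T cell-like cells to 0.27 for Fos in B cell-like cells, and many changed sign under other settings. Their SEs were 0.10 to 0.49.

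**Figure D2:**
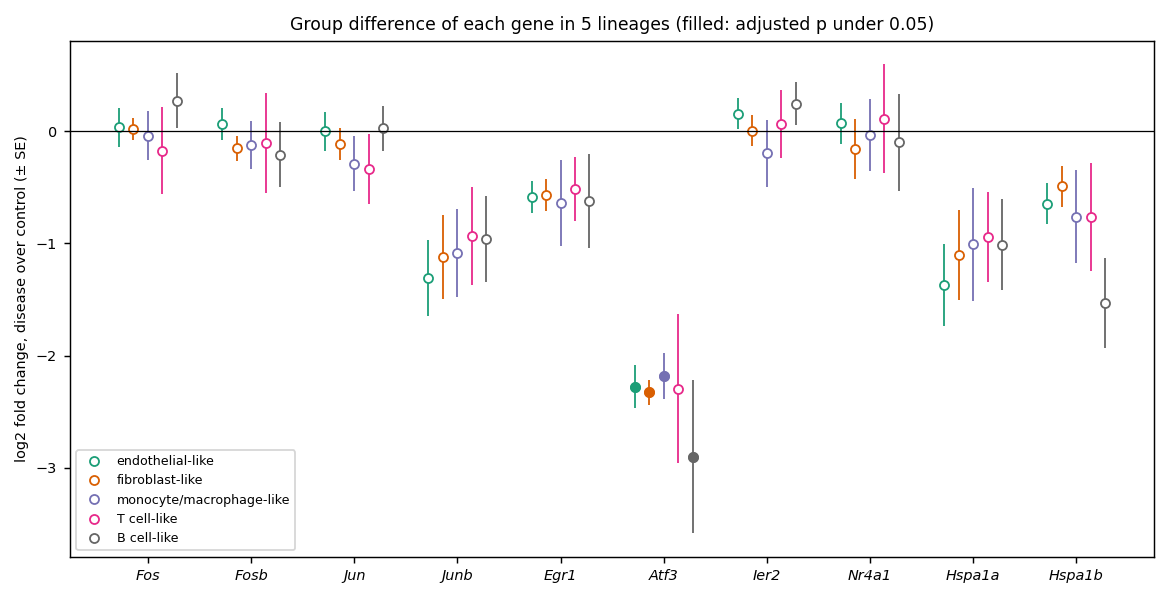
Log2 fold change, disease over control (y axis, points with SE bars), of each gene (x axis) in 5 lineages (colours), from edgeR fits to 2 control and 3 disease libraries, filled where the adjusted p was under 0.05. Atf3 lies between −2.90 and −2.18 in every lineage, Junb, Egr1 and the heat shock pair below 0, and Fos, Fosb, Jun, Ier2 and Nr4a1 near 0.

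Junb was lower in the disease libraries in all 5 lineages without passing the test in any. In endothelial-like cells it stood at 2071 and 1928 CPM in control and 815, 512 and 1205 CPM in disease, a log2 fold change of −1.31 (SE 0.34, adjusted p = 0.0702). Fibroblast-like cells had 2896 and 2635 CPM in control and 1227, 766 and 1922 CPM in disease (−1.12, SE 0.38, adjusted p = 0.126). Monocyte/macrophage-like cells had 3038 and 3754 CPM in control and 1804, 702 and 1981 CPM in disease (−1.09, SE 0.39, adjusted p = 0.204). T cell-like cells had 3076 and 3187 CPM in control and 1981, 833 and 1842 CPM in disease (−0.93, SE 0.43, adjusted p = 0.381), and B cell-like cells had a log2 fold change of −0.96 (SE 0.39, adjusted p = 0.192). In each lineage the groups did not overlap, disease replicate 4 was lowest, and the spread among disease libraries was wide. In endothelial-like cells Junb was called without disease replicate 4 (−1.04, adjusted p = 0.0207) but not without any other single library (adjusted p = 0.0510 to 0.242). DESeq2 called Junb in endothelial-like (adjusted p = 0.00722) and fibroblast-like cells (adjusted p = 0.0460), and without the filter on low counts edgeR called it in endothelial-like, monocyte/macrophage-like and B cell-like cells (adjusted p = 0.0272, 0.0235 and 1.03e-05).

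Hspa1a had the same shape. Endothelial-like cells had 834 and 587 CPM in control and 337, 162 and 362 CPM in disease (−1.37, SE 0.37, adjusted p = 0.0790). Monocyte/macrophage-like cells had 1155 and 1559 CPM in control and 998, 227 and 691 CPM in disease (−1.01, SE 0.50, adjusted p = 0.336). Fibroblast-like cells had 338 and 306 CPM in control and 192, 77.7 and 191 CPM in disease (−1.10, SE 0.40, adjusted p = 0.147). The groups did not overlap in any of the 5 lineages, and disease replicate 4 was lowest in 4 of them. Without it, Hspa1a was called in endothelial-like (−1.08, adjusted p = 0.0183) and fibroblast-like cells (−0.79, adjusted p = 0.00766), and without any other single library in neither (adjusted p = 0.121 to 0.294 and 0.131 to 0.415). In endothelial-like cells Hspa1a was also called by DESeq2 (adjusted p = 0.00998) and without the filter (adjusted p = 0.0325). With the stricter gate its value in T cell-like cells went from −0.94 to −0.21. Hspa1b ran from −0.49 in fibroblast-like to −1.53 (SE 0.40, adjusted p = 0.0613) in B cell-like cells, where it rested on 5 to 21 UMIs a library. With the 2 copies summed, the pair stood at 923 and 671 CPM in control endothelial-like cells and 391, 210 and 433 CPM in disease (−1.26, SE 0.34, adjusted p = 0.0785). In B cell-like cells the sum was called at −1.22 (SE 0.29, adjusted p = 0.0433), at 73.9 and 75.3 CPM against 25.2, 37.9 and 24.6.

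Egr1 was lower by a smaller amount. Endothelial-like cells had 1343 and 1683 CPM in control and 918, 1128 and 1120.3 CPM in disease (−0.59, SE 0.14, adjusted p = 0.0538). Fibroblast-like cells had 2538 and 3376 CPM in control and 1942, 2113 and 2083 CPM in disease (−0.57, SE 0.14, adjusted p = 0.0568). In both the groups did not overlap and the test was missed narrowly. DESeq2 called Egr1 in both (adjusted p = 0.0121 and 0.0123), and so did edgeR without the filter on low counts. The stricter gate called Egr1 in endothelial-like cells only, and the other settings called it in neither. In monocyte/macrophage-like cells, 988 and 2192 CPM in control overlapped 1343, 592 and 906 CPM in disease. Over the set, control and disease libraries were apart, with no overlap, for 5 of the 10 genes in endothelial-like, 6 in fibroblast-like and 3 in monocyte/macrophage-like cells, and for 5 and 4 in T cell-like and B cell-like cells. Among all genes tested this was so for 49.8, 50.0, 36.4, 31.0 and 39.2%, so that the counts of the set were near that background in 4 lineages and above it in T cell-like cells (5 of 10 against 31.0%). The median log2 fold change of the 10 genes was −0.29, −0.32, −0.46, −0.43 and −0.42, against −0.01 to 0.05 for all genes.

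**Figure D3:**
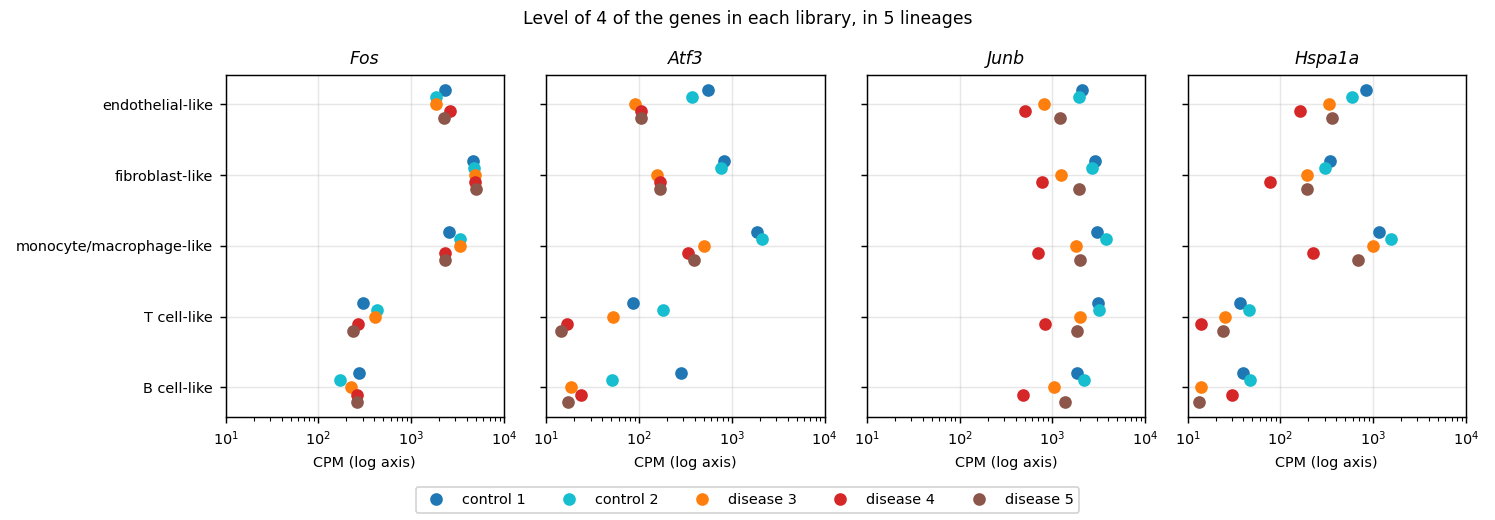
Level of Fos, Atf3, Junb and Hspa1a (x axis, CPM on a log axis) in 5 lineages (y axis), with 1 point per library. Fos points of both groups mix in 4 lineages and lie within a narrow band in fibroblast-like cells, the disease points of Atf3 sit together below the controls in endothelial-like, fibroblast-like and monocyte/macrophage-like cells, and disease replicate 4 is the lowest point for Junb in every lineage.

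Base composition moved with these differences. In a 5′ library reads begin at the start of the RNA, and across genes the log2 fold change fell with the GC share of the first 300 transcript bases, with Spearman's rho between −0.49 and −0.43 over 4920 to 6834 genes in the 5 lineages. Genes are not independent replicates, and the rho is a description. Junb (69.3% GC) and Egr1 (69.0%) were the richest of the 10 genes, Hspa1a, Hspa1b and Nr4a1 had 64.7, 64.3 and 64.0%, and Fos, Jun, Atf3, Ier2 and Fosb had 62.0, 60.7, 58.5, 58.0 and 48.7%. The median of the genes was 59.0 to 59.9%. With the trend removed from each library, Egr1 was −0.24 in endothelial-like and −0.15 in fibroblast-like cells, and Junb −0.99 and −0.72. Hspa1a was −1.20 and −0.89 and Atf3, at −2.32 and −2.42, was called in both. In monocyte/macrophage-like cells Egr1 was −0.30, Junb −0.77, Hspa1a −0.87 and Atf3 −2.32. The values of Junb and Egr1 in lymphocytes moved further, Junb from −0.93 to −0.38 in T cell-like and from −0.96 to −0.31 in B cell-like cells, and Egr1 from −0.52 to 0.05 and from −0.63 to −0.0051. Hspa1a was −0.70 and −0.61 there, and Atf3 −2.57 (adjusted p = 0.130) and −2.97 (adjusted p = 0.0455). The part of base composition in the differences was not tested further.

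The group effect was not shown to differ between lineages for any of the 10 genes. The test of all lineage-by-group terms called 0 of 10, against 0.343% of all genes. The smallest unadjusted p was 0.314, for Hspa1b, so none was under 0.05. For Atf3 the p was 0.888.

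Other genes of the 2 responses were counted from lists. Of 36 further immediate early genes, all 36 were tested in endothelial-like, fibroblast-like and monocyte/macrophage-like cells. T cell-like cells had 34 and B cell-like cells 26 that could be tested. In that order 10, 10, 6, 4 and 4 were called lower, which is 27.8, 27.8, 16.7, 11.8 and 15.4% of those tested, against 11.7, 12.4, 6.71, 4.87 and 8.59% of all genes. Called higher were 1, 0, 0, 0 and 0, against 0.324, 0.343, 0.0812, 0.0102 and 0.202%. The median log2 fold changes were −0.06, −0.31, −0.38, −0.49 and −0.22. Cebpd, a C/EBP transcription factor of the acute phase, moved most. In fibroblast-like cells Cebpd stood at 812 and 651 CPM in control and 66.7, 37.4 and 63.7 CPM in disease (−3.75, SE 0.30, adjusted p = 0.00117). It was also called in endothelial-like (−3.47), monocyte/macrophage-like (−3.07) and T cell-like cells (−3.16).

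The other genes named had the largest changes among the calls of a lineage. Dusp2, a phosphatase of MAP kinases, was called lower in endothelial-like (−2.20), fibroblast-like (−1.87), T cell-like (−2.12) and B cell-like cells (−2.47). Nfkbia, the inhibitor of NF-kB, was called at −1.72, −1.95 and −2.28 in endothelial-like, fibroblast-like and B cell-like cells. Gadd45a, a growth arrest and DNA damage gene, was called at −1.89 in endothelial-like, −1.77 in fibroblast-like, −1.97 in monocyte/macrophage-like and −2.44 in B cell-like cells. Jund, the AP-1 subunit with the highest GC share here (76.0%), was called in B cell-like (−2.01) and T cell-like cells (−1.55) and in fibroblast-like (−1.71) and macrophage-like cells (−1.76). Rhob, a small GTPase, was called at −1.16 in endothelial-like and at −1.27 in both fibroblast-like and monocyte/macrophage-like cells. Csrnp1, a nuclear protein, was called at −2.13 in T cell-like cells, at −1.07 in endothelial-like and at −1.04 in macrophage-like cells. Per2, a clock gene named after its values were seen, was the only listed early gene called higher, at 5.35 and 8.13 CPM in control and 18.8, 19.8 and 19.3 CPM in disease endothelial-like cells (1.46, SE 0.20, adjusted p = 0.00714).

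These early genes were richer in GC than most, with a median of 62.5 to 63.1% over the lineages, and Dusp2, Rhob, Nfkbia and Cebpd had 75.0, 70.7, 68.0 and 68.0%. With the GC trend removed, 8, 8, 4, 2 and 2 were called lower, 22.2, 22.2, 11.1, 5.88 and 7.69% of those tested, against 9.61, 9.52, 5.25, 2.95 and 5.16% of all genes. Jund then passed in none of the 5 lineages (adjusted p = 0.0600 to 0.144). Of the other calls named, those of Cebpd in T cell-like (adjusted p = 0.0788), Dusp2 in fibroblast-like (0.0761), Nfkbia in B cell-like (0.0545) and Rhob in endothelial-like (0.0524) and macrophage-like cells (0.0501) were lost too. Every named call of Gadd45a and Csrnp1 held, and Cebpd in fibroblast-like cells was −3.39.

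Of 18 further heat shock genes, 18, 18, 17, 17 and 15 were tested in the same order of lineages. Of these 4, 5, 3, 3 and 3 were called lower, which is 22.2, 27.8, 17.6 and 17.6% of those tested in the first 4 lineages and 3 of 15 in B cell-like cells, against the same shares of all genes as above (11.7, 12.4, 6.71, 4.87 and 8.59%). Called higher were 2, 0, 0, 0 and 0, the 2 being 11.1% against 0.324%. The median log2 fold changes were −0.06, 0.16, 0.08, 0.19 and 0.11, and 8, 10, 10, 10 and 8 of the genes tested had a value above 0. Dnajb1, the HSP40 partner of HSP70, was called in all 5 lineages, at −2.01, −1.93, −1.73, −2.36 and −2.08. In endothelial-like cells Dnajb1 stood at 348 and 287 CPM in control and 98.3, 68.8 and 79.0 CPM in disease. Hspa4, a chaperone that exchanges nucleotide on HSP70 (74.0% GC), was called at −1.83, −1.81, −1.58, −1.75 and −2.03. Hsf1, the main heat shock factor, was called at −1.34, −1.78, −1.31, −2.08 and −2.22. Hsf2 was called in endothelial-like (−1.46) and fibroblast-like cells (−1.17). The remaining calls, named after their values were seen, were Bag3, a co-chaperone of HSP70, in fibroblast-like cells (−1.10) and, higher in endothelial-like cells, the co-chaperones Dnaja1 (0.47) and Stip1 (0.52). With the GC trend removed, 4, 5, 4, 2 and 2 of the heat shock genes were called lower, against the shares of all genes given for that fit. Hsf2 was then called in monocyte/macrophage-like cells as well (−1.90), and Hspe1, a mitochondrial co-chaperone also named after its values were seen, was called higher in fibroblast-like (0.72) and B cell-like cells (1.07). Dnajb1 (68.0% GC) was called in all 5 lineages, at −1.87 to −1.44, while Hspa4 in T cell-like, Hsf1 in B cell-like and Dnaja1 and Stip1 in endothelial-like cells did not pass (adjusted p = 0.0595, 0.0720, 0.0622 and 0.0567).

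Within single cells the 10 genes tended to be found together. After thinning each cell to 1000 UMIs, which left out 0 to 276 shallower cells per lineage and library, endothelial-like cells held a mean of 3.69 and 3.31 of the 10 genes in control and 2.81, 3.06 and 3.27 in disease. Fibroblast-like cells held 5.66 and 5.68 against 4.75, 4.64 and 5.17, and monocyte/macrophage-like cells 5.25 and 6.06 against 5.05, 3.44 and 4.51. T cell-like cells held 2.37 and 2.32 against 2.34, 1.69 and 2.12, and B cell-like cells 2.20 and 1.92 against 1.79, 1.47 and 2.01. The groups did not overlap in endothelial-like, fibroblast-like and monocyte/macrophage-like cells. The difference was largest in monocyte/macrophage-like cells, at −1.32 genes per cell, where disease replicate 4 (3.44) lay well below the other disease libraries (5.05 and 4.51). A two-sided exact permutation test gave p = 0.2, 0.1, 0.2, 0.3 and 0.3 in the 5 lineages (adjusted p = 0.3 in each), and with 2 against 3 libraries no p below 0.1 can be reached.

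Endothelial-like cells spread over a wide range. In each library 11.4 to 16.6% of them had none of the 10 genes, while 23.8 to 39.1% had 5 or more. In fibroblast-like cells only 1.84 to 2.67% had none and 58.0 to 77.7% had 5 or more. A UMI of Fos was found in 48.0 to 58.5% of endothelial-like cells after thinning (62.8 to 73.4% before) and in 87.7 to 89.0% of fibroblast-like cells. T cell-like cells had Fos in 18.4 to 28.3% but Junb in 52.5 to 88.1%. A UMI of Atf3 was found in 71.5 and 74.6% of control monocyte/macrophage-like cells and in 37.3, 25.6 and 30.4% of those in disease (91.7 and 87.1% against 73.0, 68.5 and 72.7% before thinning). No assigned lineage lacks these genes altogether, so no lineage served as a background for free RNA.

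**Figure D4:**
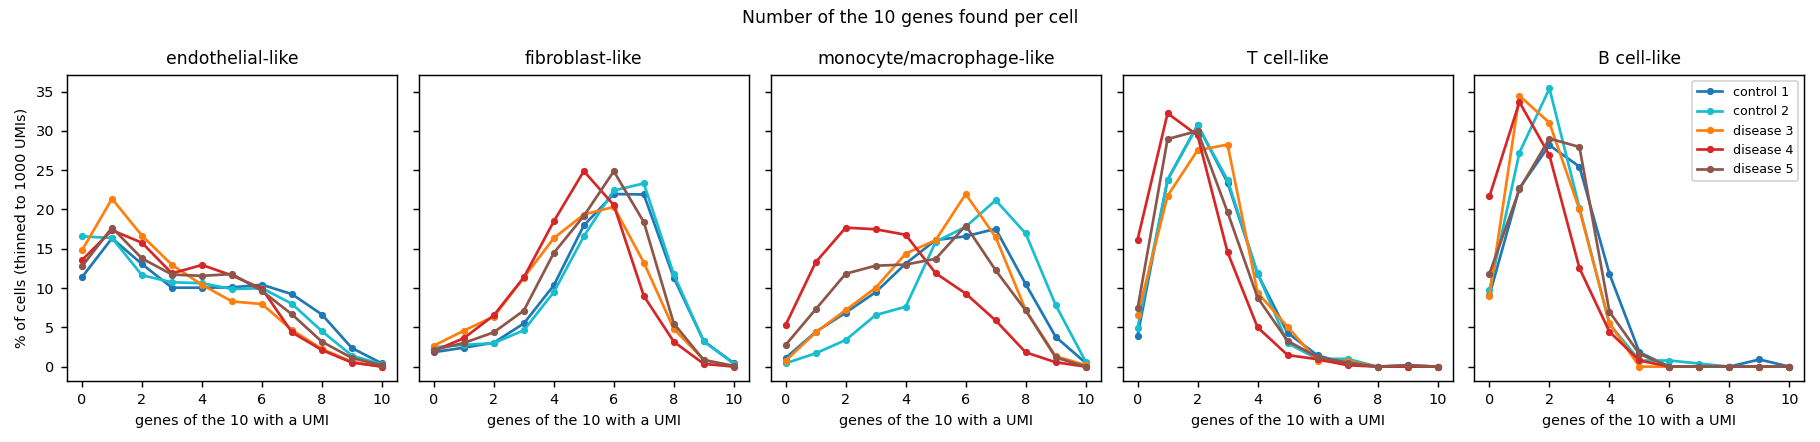
Share of cells (y axis, %) by the number of the 10 genes with a UMI in the cell (x axis), after thinning to 1000 UMIs, in 5 lineages with 1 line per library. Endothelial-like cells spread from 0 to 7 genes, fibroblast-like cells centre on 5 to 7, and disease replicate 4 lies to the left of the other libraries in monocyte/macrophage-like and T cell-like cells.

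Among the 5 larger lineages, the median odds ratio was highest in endothelial-like cells. In endothelial-like cells all 45 pairs had an odds ratio of joint detection above 1 in every library, with a median of 4.34 over pairs. The pair found together most was Fos with Hspa1a, at a median odds ratio of 8.02 (7.23 to 13.0 over libraries), followed by Egr1 with Hspa1a (6.97) and Hspa1a with Hspa1b (6.61). In fibroblast-like cells 43 of 45 pairs were above 1 in every library, with a median of 1.96, led by Fos with Egr1 (6.91) and Fos with Jun (6.24). In monocyte/macrophage-like cells 39 of 45 were, with a median of 1.86, led by Fos with Jun (5.21) and lowest for Jun with Nr4a1 (1.01). Few pairs could be read in lymphocytes: 12 pairs had at least 5 joint cells in every library in T cell-like cells, 8 of them above 1 throughout, and 9 pairs in B cell-like cells, with 1 above 1 throughout. Cells of a library share their digestion and depth, so these ratios are descriptions.

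**Figure D5:**
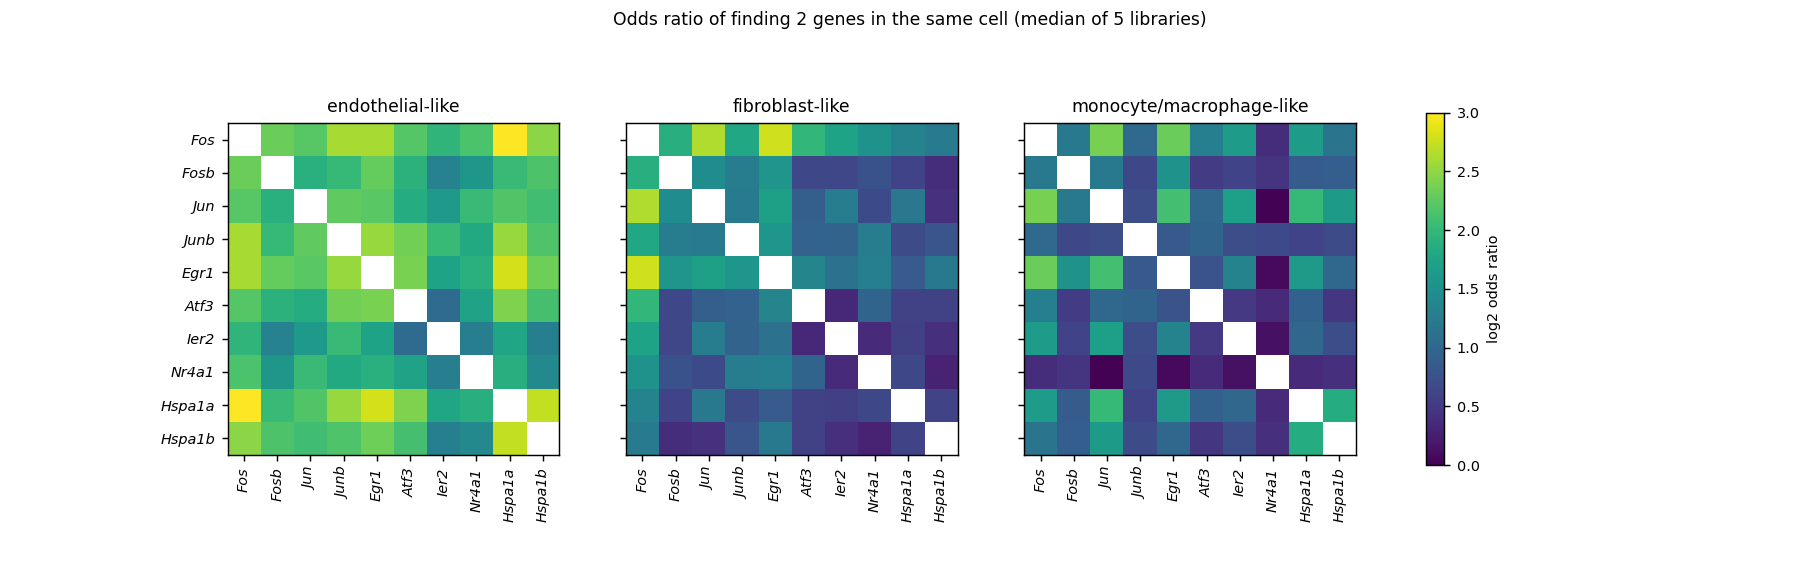
Log2 of the odds ratio (colour, median of 5 libraries) that 2 of the 10 genes (rows and columns) are found in the same cell, after thinning, in 3 lineages. All 45 medians are above 0 in each of the 3 lineages, from an odds ratio of 2.07 upward in endothelial-like, 1.22 in fibroblast-like and 1.01 in monocyte/macrophage-like cells.

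In monocyte/macrophage-like cells, depth and mitochondrial share moved with the number of genes found. In disease replicate 4, cells in the lowest tertile of UMIs before thinning held 4.23 of the 10 genes and those in the highest 2.71. In disease replicate 5 these values were 5.20 and 3.45, and in control replicate 1 they were 5.62 and 4.52. Fibroblast-like cells also held more in the lowest tertile in every library, for example 4.83 against 4.48 in disease replicate 4. T cell-like and B cell-like cells did so in all libraries but control replicate 2. Endothelial-like cells went the other way in every library, for example 2.24 against 3.41 in disease replicate 3. By mitochondrial share, the lowest tertile of monocyte/macrophage-like cells held 2.95 genes in disease replicate 4 and the highest 3.91, and the order was the same in the other 4 libraries. In each of the other 4 lineages this order differed between libraries, for example 3.73 and 3.68 in endothelial-like cells of control replicate 1 against 2.76 and 3.33 in those of disease replicate 4. Disease replicate 4 also had the most monocyte/macrophage-like cells, 1512, with a median of 6593 UMIs, and the lowest mitochondrial share. The part of depth, mitochondrial share or cell state in the lower values of that library was not tested.

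The genes that varied most like the 10 across lineages and libraries were taken from 5890 genes with a mean of at least 20 CPM, over 27 sums of a library and lineage with at least 50 cells. By Pearson's r with the mean of the 10 standardised genes, the list was led by Klf4 (0.94), a zinc finger transcription factor, Vat1 (0.94), Sept8 (0.94), Gm26802 (0.92) and Gas6 (0.91), a ligand of TAM receptors. Nfic (0.90), Cebpd (0.90), Sash1 (0.90), C1qtnf1 (0.90) and Nav1 (0.90) followed. Of the 10 genes themselves, Fos (0.92), Egr1 (0.91), Fosb (0.90) and Jun (0.89) were closest to their mean, then Hspa1a (0.86), Hspa1b (0.81) and Atf3 (0.79). Junb and Ier2 had 0.46 each and Nr4a1 0.05. Each of the 10 genes is itself part of the mean, which raises its r. These values are therefore not on the same footing as those of Klf4 and the other genes listed. Fos and Fosb had an r of 0.97 with each other, while Fos and Nr4a1 had −0.12. The sums of a library share its digestion and depth, and no p is given.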

How the data were processed

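The deposited matrices give unnormalised UMI counts by gene and barcode, and their headers name Cell Ranger 3.1.0 as the authors' software. The submitters' processing notes also name Seurat 3 and the builds mm10 and GRCh38, with no role; no coordinate of the files was used. Cells were kept from 500 UMIs and 200 genes upward if no more than 10% of UMIs were mitochondrial, which removed 12.4 to 32.5% of barcodes. A cell took the lineage with the most markers that had a UMI, given at least 2 and no other lineage with more than 50% as many. Mixed cells (4.76 to 10.4%) were left out, and no doublet caller was run.

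UMIs were summed per library and lineage and tested with edgeR 4.0.16 (quasi-likelihood, TMM, filterByExpr) in R 4.3.3, with Benjamini-Hochberg adjustment over all genes at 0.05. Testing used 4957 to 13399 genes a lineage, and all 10 genes passed the filter in each. Printed CPM are counts per 1e+06 UMIs of the lineage, with no further scaling. The promoters are RefSeq's and GC shares are from GENCODE M21, as means over a gene's transcripts. The scripts were tested on simulated counts. The members and lists were chosen with earlier results of these data known. From the 2 further lists, up to 4 called genes a fit with the largest changes were named, and from the correlations the 10 highest. Alternatives were DESeq2 1.42.0, other scaling, filters, gates and cell limits, removal of a GC trend, and leaving out each library. The sum of Hspa1a and Hspa1b was added after the data were seen.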

Additional observations from a re-analysis of the deposited data

How the results depend on the processing

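The 2 control and 3 disease pools limit what can be called, no count of Atf3 in lymphocytes exceeded 269 UMIs a library, and neither a batch nor the mice of each pool is known, so any batch and the groups cannot be told apart. No paired analysis was possible because the groups share no replicate numbers. The causes of the changes below were not tested.

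The number of the 10 genes called changed as follows. DESeq2 called 4 lower in endothelial-like, 3 in fibroblast-like and 1 in T cell-like cells, against 13.2, 14.1 and 5.46% of all genes. Without a filter on low counts, 4 were called in endothelial-like, 2 in fibroblast-like and 2 in monocyte/macrophage-like cells, and 1 and 2 in T cell-like and B cell-like cells, against 8.24, 8.63, 6.24, 4.56 and 5.83% of all genes called lower. The stricter gate called 2 in endothelial-like and 1 in T cell-like cells (11.7 and 4.90% of all genes), plain library totals called 2 in B cell-like cells (10.6%), and cells of up to 25% mitochondrial UMIs called 0 there (8.55%). Leaving out 1 library gave 1 to 3 in endothelial-like, 1 to 2 in fibroblast-like, 0 to 1 in T cell-like and 0 to 1 in B cell-like cells, while 5.67 to 11.7, 5.63 to 12.9, 0.012 to 4.54 and 0.774 to 8.89% of all genes were called lower in these lineages. The number of all genes called was 1335 for macrophage-like, 830 for T cell-like and 947 for B cell-like cells without the filter, and 290 and 279 in T cell-like and B cell-like cells with the GC trend removed. Leaving out 1 library gave 758 to 1510, 785 to 1805, 193 to 1024, 1 to 440 and 45 to 500 genes in the 5 lineages, in the order used above; the lowest came without control replicate 2 (endothelial-like, fibroblast-like and B cell-like) or disease replicate 5 (the other two).

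Of 655 values of the 10 genes under alternatives, 45 changed sign, none of a called gene. With the GC trend removed these were Fosb (−0.089) in endothelial-like, Ier2 (−0.11) and Nr4a1 (0.026) in fibroblast-like, Nr4a1 (0.084) in monocyte/macrophage-like, Egr1 (0.052) and Ier2 (−0.20) in T cell-like and Nr4a1 (0.18) in B cell-like cells. Jun changed to −0.0035 and −0.0062 in endothelial-like cells without the filter and with up to 25% mitochondrial UMIs. In B cell-like cells Jun changed to −0.077 with plain totals, −0.096 with up to 25% mitochondrial UMIs and −0.041 without the 5% of cells with most UMIs. Ier2 in fibroblast-like cells was −0.00018 without the filter and Fosb in T cell-like cells 0.17 with the stricter gate. Leaving out 1 library gave Fos −0.13 to 0.22, Fosb −0.0048 to 0.17, Jun −0.12 to 0.13 and Nr4a1 −0.023 to 0.23 in endothelial-like cells, Fos −0.00024 to 0.040, Ier2 −0.097 to 0.076 and Nr4a1 −0.42 to 0.039 in fibroblast-like cells, Fos −0.20 to 0.10, Ier2 −0.52 to 0.23 and Nr4a1 −0.22 to 0.21 in monocyte/macrophage-like cells; Fos −0.58 to 0.079, Fosb −0.65 to 0.12, Ier2 −0.28 to 0.37 and Nr4a1 −0.28 to 0.43 in T cell-like cells; Fos −0.044 to 0.71, Fosb −0.56 to 0.24, Jun −0.17 to 0.29, Egr1 −1.13 to 0.11 and Nr4a1 −0.48 to 0.27 in B cell-like cells.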
